A study of Mus musculus with 3 samples.

Results

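Collagens, laminins and integrins were examined in J1 mouse embryonic stem cells (mESCs) treated with the MEK inhibitor PD0325901 (PD). Members were the genes whose symbols follow the numbered names of collagen chains (Col), laminin chains (Lama, Lamb, Lamc) and integrin chains (Itga, Itgb). The reference table of genes held 81 such genes, and 78 of them had at least 1 probe on the array, out of 20660 named genes in all. They were 43 collagen chains, 11 laminin chains, 16 integrin alpha chains and 8 integrin beta chains, measured by 109 probes. Col12a1, Itga10 and Itgae were matched to no probe.

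Collagens are triple helices of chains that build fibrils, filaments and sheet-like networks outside the cell. Laminins are trimers of an alpha, a beta and a gamma chain, and together with the network of collagen IV they form basement membranes, the first matrix that early embryonic cells lay down. Integrins are pairs of an alpha and a beta chain that span the cell membrane, bind these matrix proteins and connect them to the actin cytoskeleton.

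The study used expression arrays to follow what blocking MEK, the kinase that activates ERK, does to mESCs. Per the labels, the 3 samples were replicates 1 to 3 of 1 group. The methods describe them as independent experiments. J1 is a line of strain 129S4/SvJae, labelled as embryonic stem cells of the inner cell mass. In every sample the line had been adapted to gelatin and was grown without feeder cells in Knockout DMEM with serum replacement and leukemia inhibitory factor (LIF, 1000 U/mL), and it received 1 µM PD for 24 h. Each sample was labelled with Cy3 and hybridised to its own 1-colour Agilent array. Cells without PD were not analysed here, so the values describe PD-treated cells and hold no effect of PD.

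Values are the processed signal of the scanner software, an intensity after background subtraction. For a gene with several probes the one brightest on average stood for it (the representing probe). The gene was called detected on an array where at least 50% of the spots of that probe were flagged well above background. The lowest signal with that flag was 10.1, 11.4 and 10.3 on replicates 1, 2 and 3, and no spot was saturated. A level is the log2 signal minus the 75th percentile of the array, which was 551, 511 and 527. Signals of different probes depend on their sequences, so no gene was ranked against another. Levels are given as mean ± SD over 3 arrays, and their number limits the precision. In a culture, fewer cells that make a transcript and less of it per cell cannot be told apart. Marker genes of the labelled cell type were read as well. All 8 ES cell markers were detected on 3 arrays, among them Pou5f1 (11265, 16872 and 10239), Sox2 (6453, 4835 and 6827) and Nanog (695, 689.9 and 689). Of all named genes 72.7% were detected on 3 arrays, as were all 10 markers of primitive and parietal endoderm read below. Detection alone therefore does not test the label of the cells.

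Of the 78 members, 51 (65.4%) were detected on all 3 arrays, 10 on 1 or 2 arrays and 17 on none. Over all named genes these shares were 72.7%, 5.25% and 22.0%. The families differed in their counts. Of the laminin chains, 10 of 11 (90.9%) were detected on every array and Lama2 on 2. Integrin beta chains followed with 6 of 8 (75%), alpha chains with 10 of 16 (62.5%) and collagen chains with 25 of 43 (58.1%). A level above 0 on all 3 arrays was found for 20 members (25.6%), against 40.9% of named genes. These 20 were 7 laminin chains, 4 alpha chains, 4 beta chains and 5 collagen chains.

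**Figure D1:**
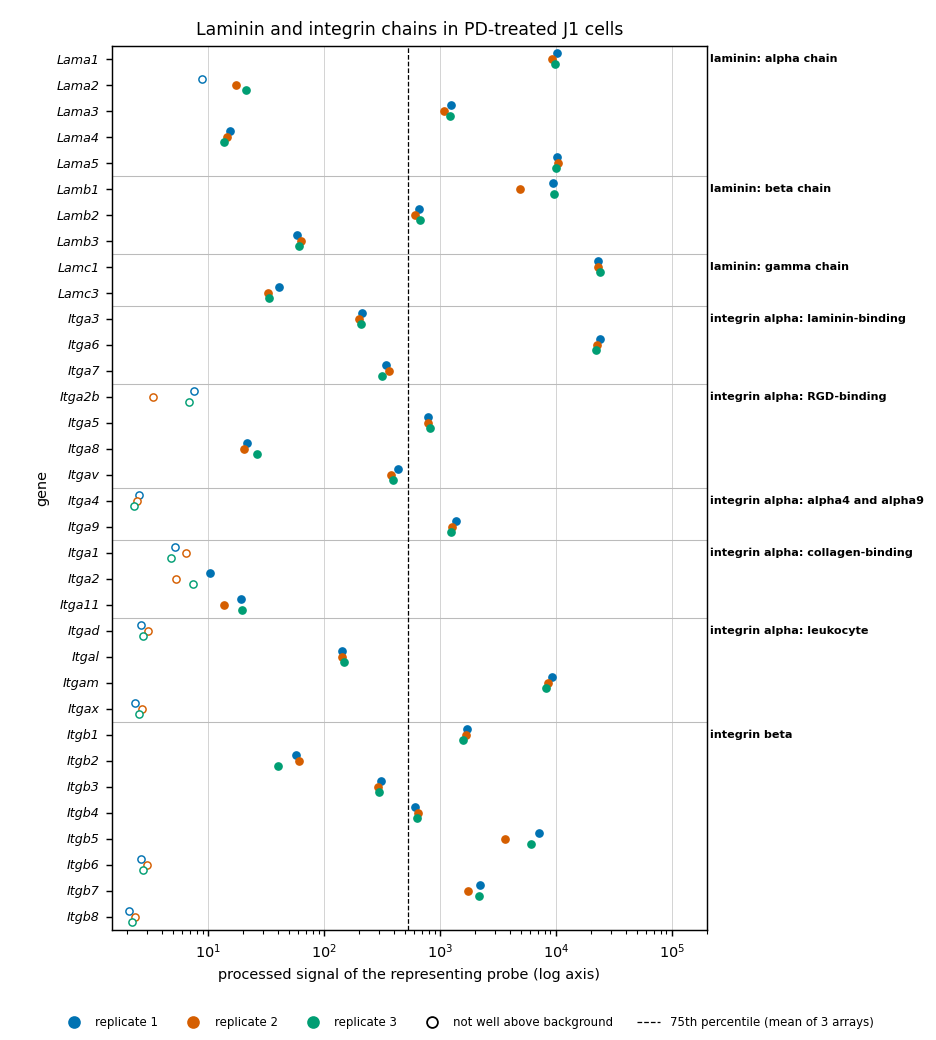
Processed signal (log axis) of the representing probe of laminin and integrin chains on the 3 arrays, with 1 point per replicate. Open points were not well above background, and the dashed line is the mean 75th percentile of the arrays. Every laminin chain shown has filled points, whereas 7 integrin chains have open points on all 3 arrays.

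Laminins were the family with the fewest undetected chains. The gamma chain Lamc1, which is shared by most laminin trimers, had signals of 22899, 23066 and 23950.5 on replicates 1 to 3 (level 5.46 ± 0.071, SD, n = 3 here and below). The alpha chains Lama1 and Lama5, which give the early embryonic laminins their cell-binding end, had signals of 10295, 9235 and 9876 (4.21 ± 0.03) and of 10335, 10452 and 10106 (4.28 ± 0.064). In all of these chains the 3 arrays lay close together. Lamb1, their usual beta partner, had signals of 9463, 4939 and 9723 (3.86 ± 0.51). Replicate 2 was low for Lamb1 while the other arrays lay near each other.

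Lama3 and Lamb3, chains known from epithelial basement membranes, were detected on every array. Lama3 had signals of 1239.5, 1094 and 1219 (1.16 ± 0.057), and its second probe was also detected on all arrays (907, 888 and 899). Lamb3 was at 58.7, 63.8 and 61.1 (−3.11 ± 0.11), well above background but below the 75th percentile on all arrays.

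Lamb2, the beta chain of synaptic and kidney basement membranes, had signals of 661, 612 and 676 (0.29 ± 0.056). Lamc3 was at 41, 32.7 and 33.8 (−3.89 ± 0.13). Lama4, an alpha chain of vessel walls, was at 15.4, 14.6 and 13.7 (−5.19 ± 0.07), just above the lowest signal called detected. Lama2, the alpha chain of muscle basement membrane, was at 8.82, 17.4 and 21.2 and passed on replicates 2 and 3 only, and its other probe passed on none (4.38, 2.55 and 2.3).

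Read as proteins, 11 of 14 listed laminin trimers had every chain detected on all arrays. The 3 others all contain Lama2, and without replicate 1, on which Lama2 failed, all 14 were complete. The complete trimers with Lama4 rest on a chain just above the lowest signal called detected. Detection of the chain transcripts says nothing of assembly.

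The 3 integrin alpha chains that bind laminin were detected on every array. Itga6, the partner of Itgb1 and Itgb4 in laminin receptors, had signals of 24054, 22877 and 22354 (5.45 ± 0.038). Itga7, known from muscle, was at 340.2, 362 and 316 (−0.64 ± 0.13), and Itga3, known from kidney and skin, at 213, 199.8 and 209.6 (−1.35 ± 0.019). None of these chains had arrays more than 0.24 log2 units apart.

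Of the alpha chains that recognise the RGD motif of fibronectin and vitronectin, 3 of 4 were detected on all arrays. Itga5, the alpha chain of the main fibronectin receptor, had signals of 787, 786 and 815 (0.59 ± 0.063). Itgav, which pairs with several beta chains, was at 432, 376 and 393 (−0.41 ± 0.049), and its second probe was detected too (138, 158 and 136). Itga8 was at 21.8, 20.4 and 26.5 (−4.54 ± 0.2), and the platelet chain Itga2b was not detected on any array.

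Of the 3 collagen-binding alpha chains on the array, 1 was detected on every array. This was Itga11, near the limit of detection, at 19.3, 13.9 and 19.7 (−4.92 ± 0.24). Itga2 passed on replicate 1 only (10.4, 5.35 and 7.41), and Itga1, its neighbour in the genome, passed on none. Itga9, which binds tenascin and VCAM-1, had signals of 1383, 1278 and 1254 (1.3 ± 0.043), whereas both probes of Itga4, the other chain of its subgroup, were undetected on all arrays.

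Among the alpha chains of leukocyte integrins, Itgal and Itgam were detected on all arrays, and Itgad and Itgax were not detected on any. Itgal was at 143, 144 and 148 (−1.87 ± 0.067). Itgam had signals of 9319.7, 8491 and 8215 (4.03 ± 0.062) on its brightest probe. Its other probes were detected as well, but at 99, 71.1 and 89.5 and at 87.4, 80.6 and 88.1, so the level of Itgam rests on 1 of its 3 probes. The genes Itgam, Itgax and Itgad follow each other in the genome. Of the blood and leukocyte markers, 3 of 6 were detected on all arrays, beside 72.7% of all named genes. Their summed signal was between 1587 and 1707, and Cd3e was at 1568, 1636 and 1516. Ptprc, which encodes the pan-leukocyte antigen CD45, was at 12.2, 15.3 and 13.5, and Spi1 and Gp9 were undetected on all arrays. Which transcripts the bright Itgam probe reads was not tested.

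Of the beta chains, 6 of 8 were detected on every array. Itgb1, the partner of most alpha chains, had signals of 1702, 1690.4 and 1572 (1.64 ± 0.075), and its second probe gave 774, 1138 and 690.1. Itgb5, an Itgav partner in vitronectin binding, had signals of 7098, 3667 and 6153 (3.36 ± 0.45), with replicate 2 low. Itgb7, a chain of gut-homing lymphocytes, was at 2223, 1763 and 2158 (1.94 ± 0.14).

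Itgb4, the hemidesmosome chain, was at 616, 649 and 642 (0.26 ± 0.093). Itgb3, a chain of platelets and osteoclasts, was at 309, 293 and 300.4 (−0.82 ± 0.016), while its second probe was undetected on all arrays (6.48, 6.22 and 4.03). Itgb2, the beta chain shared by leukocyte integrins, was at 58.1, 61.2 and 40.1 (−3.34 ± 0.34), with replicate 3 low. Itgb6 and Itgb8, the remaining beta partners of Itgav, were not detected on any array.

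**Figure D2:**
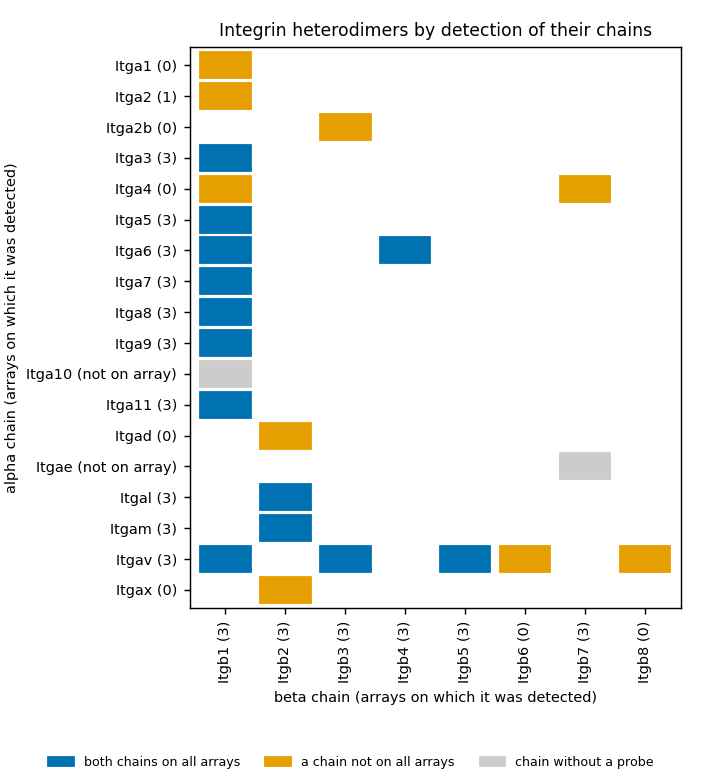
Known integrin heterodimers as squares at the crossing of their alpha chain (rows) and beta chain (columns), with the number of arrays on which each chain was detected in brackets. Of the 22 pairs with both chains on the array, 13 are complete (blue) and 9 lack detection of a chain on at least 1 array (orange).

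Of 24 listed integrin heterodimers, 22 had probes for both chains, and 13 had both chains detected on all arrays. Itgb1 took part in 8 of these 13, with Itga3, Itga5, Itga6, Itga7, Itga8, Itga9, Itga11 and Itgav. It is also the beta chain of more listed pairs than any other. The pair with Itga11 rests on signals near the limit of detection. The receptors Itga6 Itgb4, Itgav Itgb3 and Itgav Itgb5 were complete. Itgal Itgb2 and Itgam Itgb2 were complete too, with the reserve on the Itgam probes given above. In the 9 incomplete pairs the undetected chain was an alpha chain in 7 and a beta chain, Itgb6 or Itgb8, in the others.

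**Figure D3:**
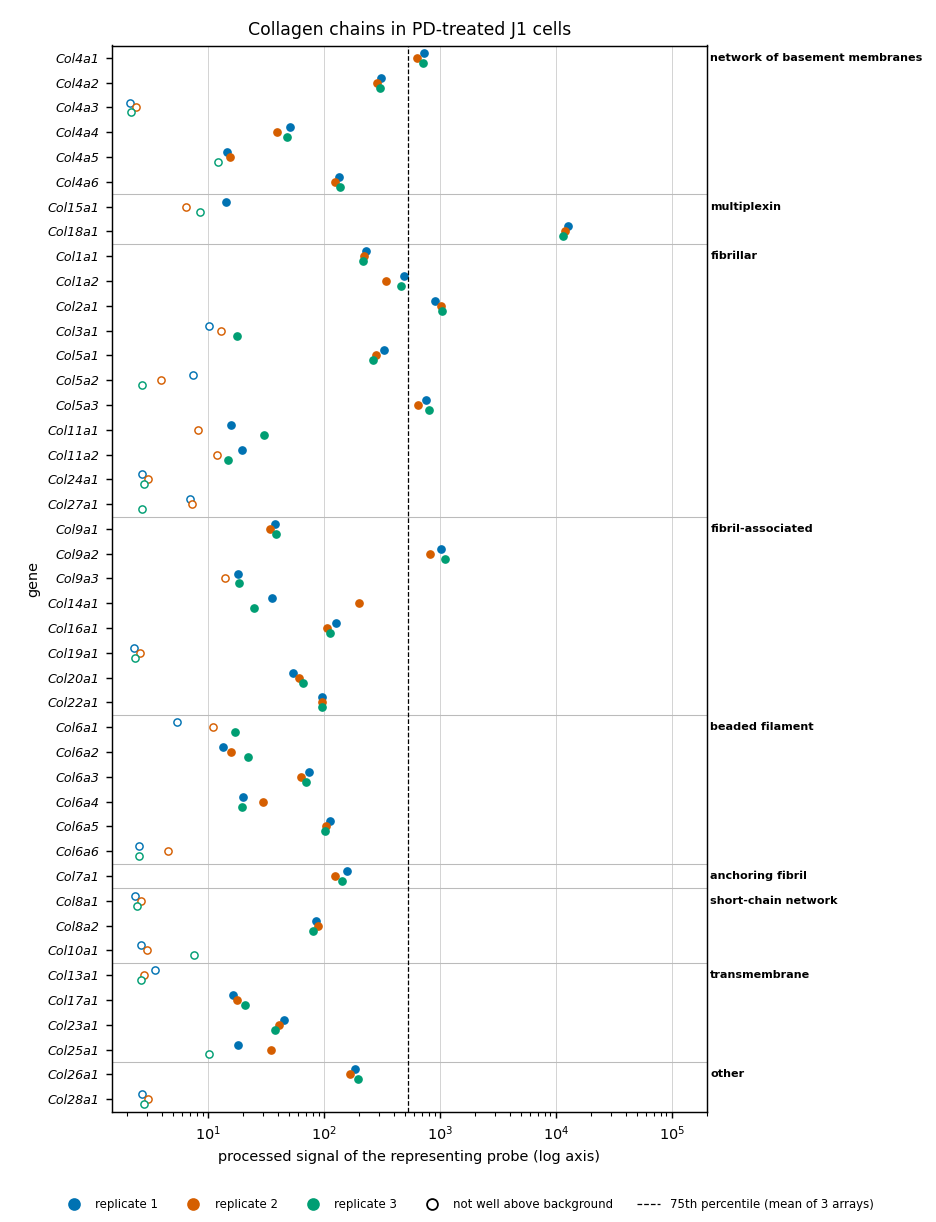
Processed signal (log axis) of the representing probe of each collagen chain on the 3 arrays, grouped by the kind of structure the chains build, with 1 point per replicate. Open points were not well above background, and the dashed line is the mean 75th percentile of the arrays. Of 43 chains, 25 have filled points on all arrays, and 5 lie above the 75th percentile on all of them.

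Collagen IV forms the network of basement membranes. Col4a1 and Col4a2, which make its common trimer, were detected on all arrays, with signals of 736, 638 and 721 (0.4 ± 0.07) and of 310.3, 289 and 306 (−0.81 ± 0.024). Col4a6 was at 135, 126 and 137 (−2 ± 0.045), and its second probe passed on replicate 1 only (40.5, 3.05 and 2.76). Col4a4 was at 51.3, 39.7 and 47.9 (−3.52 ± 0.14), and its other probes were undetected on all arrays (2.16, 2.47 and 2.17, and 13.4, 7.52 and 8.79). Col4a5 passed on replicates 1 and 2 (14.7, 15.6 and 12.2), and Col4a3 on none. Of the collagen IV trimers, the one of Col4a1 and Col4a2 was therefore complete, whereas those of Col4a3, Col4a4 and Col4a5 and of Col4a5 and Col4a6 were not.

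Collagen IV genes lie in pairs that start next to each other and are read in opposite directions. RefSeq promoter windows (GRCm38.p6, 250 bases before to 50 after the start) are shown for the pair with both genes detected on all arrays and for the pair in which Col4a6 was detected on 3 arrays and Col4a5 on 2. The remaining pair, Col4a4 (detected on 3 arrays) and Col4a3 (on none), is not shown, since no window was found for Col4a3. Capitals mark GC boxes (GGGCGG, or CCGCCC for the other strand) and CCAAT boxes (CCAAT or ATTGG). The windows are those of Col4a2 (chr8:11312555-11312854, plus strand), Col4a1 (chr8:11312777-11313076, minus strand), Col4a6 (chrX:141474027-141474326, minus strand) and Col4a5 (chrX:141475169-141475468, plus strand).
Col4a2: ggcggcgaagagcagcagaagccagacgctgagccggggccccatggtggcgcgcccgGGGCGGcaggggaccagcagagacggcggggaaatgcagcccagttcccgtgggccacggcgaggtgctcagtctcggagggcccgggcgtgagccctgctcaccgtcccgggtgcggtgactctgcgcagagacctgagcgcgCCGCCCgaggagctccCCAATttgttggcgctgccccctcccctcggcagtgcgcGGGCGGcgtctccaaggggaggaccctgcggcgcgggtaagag
Col4a1: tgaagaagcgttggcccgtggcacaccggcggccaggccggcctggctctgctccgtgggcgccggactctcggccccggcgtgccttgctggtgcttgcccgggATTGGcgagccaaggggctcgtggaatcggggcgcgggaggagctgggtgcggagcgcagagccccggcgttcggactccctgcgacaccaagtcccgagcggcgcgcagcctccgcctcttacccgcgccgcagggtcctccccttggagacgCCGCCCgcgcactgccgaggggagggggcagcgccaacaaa
Col4a6: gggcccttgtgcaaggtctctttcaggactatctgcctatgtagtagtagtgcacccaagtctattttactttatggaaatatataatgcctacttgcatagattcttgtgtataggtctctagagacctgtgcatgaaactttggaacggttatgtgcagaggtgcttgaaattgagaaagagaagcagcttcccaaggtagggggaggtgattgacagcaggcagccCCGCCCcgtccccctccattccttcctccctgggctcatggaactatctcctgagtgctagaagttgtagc
Col4a5: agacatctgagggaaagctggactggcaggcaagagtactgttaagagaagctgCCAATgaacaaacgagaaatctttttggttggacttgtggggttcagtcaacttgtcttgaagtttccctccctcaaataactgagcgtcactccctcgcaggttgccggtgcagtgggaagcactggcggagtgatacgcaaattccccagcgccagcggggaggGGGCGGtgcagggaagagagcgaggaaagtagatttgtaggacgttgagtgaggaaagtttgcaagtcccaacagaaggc

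The starts of Col4a1 and Col4a2 are 21 bases apart, and their windows share 78 bases. The starts of Col4a6 and Col4a5 are 1343 bases apart and their windows share 0. The windows of Col4a2 and Col4a1 hold 3 and 1 GC boxes and 1 CCAAT box each, at a GC content of 73.7% and 74%. The GC box of Col4a1 lies in the shared bases and is the last GC box of Col4a2 read on the other strand. The window of Col4a6 has 1 GC box at a GC content of 48.3%, and that of Col4a5 has 1 of each box at 52.7%. No TATA box (TATAAA on either strand) is in these 4 windows. RefSeq windows were found for 57 of the 78 members, 63 windows in all. A GC box was in 55.6% of these and in 35.7% of all 32851 windows of the table, a CCAAT box in 27% and 37.4%, and a TATA box in 7.94% and 13.6%. The median GC content was 59.3% in member windows and 52.7% in all windows, and the shares were not matched for it. A match to these letters is no evidence that a factor binds there.

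Col18a1, a basement membrane collagen whose end is released as endostatin, had signals of 12659, 12108 and 11578 (4.52 ± 0.054), and its second probe was detected as well (7425, 6863 and 7078). Col15a1, the other multiplexin, passed on replicate 1 only (14.2, 6.45 and 8.58), and its other probes on none. Col7a1, which forms the anchoring fibrils of the skin, was at 159.6, 124 and 143 (−1.9 ± 0.13).

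Of the fibrillar collagens, 5 of 11 were detected on every array. Col1a1 and Col1a2, the chains of the main collagen of bone and skin, were at 232, 224 and 219 (−1.23 ± 0.039) and at 489, 345 and 464 (−0.31 ± 0.23). Col2a1, the main collagen of cartilage, was at 903, 1020 and 1040.3 (0.9 ± 0.16). Both of these trimers were thus complete, but the other listed fibrillar trimers were not. Col5a1 was at 328, 279 and 267 (−0.87 ± 0.12) and Col5a3 at 761, 651 and 804 (0.48 ± 0.13), while Col5a2, the chain they pair with, was not detected on any array. Col3a1, its neighbour in the genome and a collagen of vessels and loose tissue, passed on replicate 3 only (10.2, 13.1 and 18). Col11a1 passed on replicates 1 and 3 (15.7, 8.19 and 30.5), as did Col11a2 (19.6, 12.1 and 14.9). Col24a1 and Col27a1 were not detected on any array. Of the 11 listed collagen trimers, 3 had every chain detected on all arrays, those of Col1a1 with Col1a2, of Col2a1 and of Col4a1 with Col4a2. The count was 5 without replicate 2 and 10 with the looser flag for positive and significant signals.

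Of the collagens that sit on the surface of fibrils, 6 of 8 were detected on every array. Col9a2, a chain of cartilage fibrils, was at 1020.3, 825 and 1110.4 (0.89 ± 0.19). Its partner Col9a1 was at 37.8, 34.3 and 38.5 (−3.85 ± 0.064), with a second probe undetected on all arrays (6.07, 10 and 9.01), and its partner Col9a3 passed on replicates 1 and 3 (18.2, 14.1 and 18.5). Col16a1 was at 128, 107 and 114 (−2.19 ± 0.077). Of its other probes, 1 passed on replicate 3 only (8.73, 11.6 and 17) and 1 on no array.

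Col22a1, known from tissue junctions, was at 96.4, 97 and 97 (−2.45 ± 0.058), and Col20a1 at 54.6, 60.8 and 66.7 (−3.13 ± 0.18). Col14a1 was at 35.7, 201 and 24.9 (−3.23 ± 1.6), with replicate 2 far above the others. Its second probe, detected on all arrays, gave 19.6, 20.4 and 20.2, with no such difference. Col19a1, which lies next to Col9a1, was not detected on any array.

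Collagen VI forms beaded filaments in most connective tissues. Its chains Col6a2 and Col6a3 were at 13.6, 15.7 and 22 (−4.98 ± 0.38) and at 74, 63.4 and 70.8 (−2.93 ± 0.067), but Col6a1, needed for its trimer, passed on replicate 3 only (5.37, 11 and 17.2). Of the related chains, Col6a5 was at 114, 105 and 102 (−2.31 ± 0.052), with a second probe undetected (2.13, 2.41 and 2.23). Col6a4 was at 20.2, 29.6 and 19.8 (−4.54 ± 0.37), likewise with an undetected second probe (6.68, 2.92 and 2.66), and Col6a6 was not detected on any array.

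Of the remaining collagens, 4 of 9 were detected on all arrays. Col26a1 was at 186, 168 and 196 (−1.53 ± 0.092). Col8a2, a chain of the network under the corneal endothelium, was at 85, 89.3 and 81.2 (−2.64 ± 0.1), and its second probe passed on no array (10.4, 6.74 and 7.27). The transmembrane collagens Col23a1 and Col17a1, the latter a part of hemidesmosomes, were at 45.1, 40.9 and 38.2 (−3.68 ± 0.093) and at 16.4, 18 and 21.1 (−4.85 ± 0.21). One further probe of Col23a1 passed on replicate 2 only (10.7, 48.5 and 10.5) and the other on no array. Col25a1 passed on replicates 1 and 2 with 1 of 4 probes (18.3, 35.3 and 10.2), and Col8a1, Col10a1, Col13a1 and Col28a1 were not detected on any array.

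**Figure D4:**
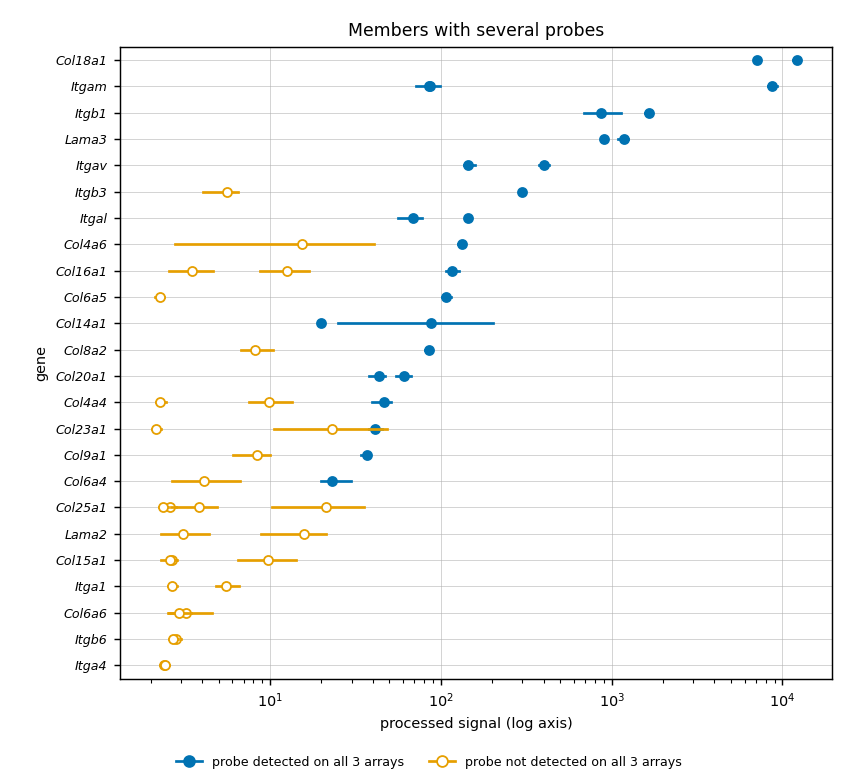
Processed signal (log axis) of every probe of the 24 members with several probes, with the point at the mean and the line from the lowest to the highest array. Filled blue probes were detected on all 3 arrays and open orange ones were not. In 9 genes a filled probe and an open one stand on the same line, and in Itgam and Col14a1 detected probes lie far apart or spread widely.

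Detection of a gene depended on the probe for a part of the members. Among 24 members with several probes, all probes were detected on all arrays in 8, none in 7, and the probes disagreed in 9 (37.5%). Over 5476 named genes with several probes the share that disagreed was 17.8%. These shares were not matched for level or for the number of probes per gene. The 9 genes were Col4a4, Col4a6, Col6a4, Col6a5, Col8a2, Col9a1, Col16a1, Col23a1 and Itgb3, all but the last of them collagens. Collagens also made up most of the 24 members with several probes. If a gene had to be detected by every probe, 42 members in place of 51 were detected on all arrays, and collagens went from 25 to 17.

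The spread between the replicates was examined next. Over the 51 detected members the median SD was 0.077 log2 units, against 0.074 over the 14999 detected named genes that kept a spot without an outlier flag on every array. Differences between arrays were spread more widely over the members where replicate 2 was involved. Their SD over genes was 0.44 log2 units for members and 0.23 for all between replicates 1 and 2. Between replicates 2 and 3 it was 0.51 and 0.24, and between replicates 1 and 3 it was 0.19 and 0.18. Such an SD weighs large differences most, and 1 gene, Col14a1, had arrays 3.06 log2 units apart. The next widest detected member was Lamb1 at 0.93. The SDs were not computed without Col14a1, so a wider spread of the members as a set is not shown. Among genes with a mean level below −1.91 the median SD was 0.12 for 20 members and 0.14 for all, and among those above 2.8 it was 0.063 for 8 members and 0.055 for all. Col14a1 was the 1 detected member (1.96%) with arrays more than 1 log2 unit apart, against 0.987% of detected named genes. Its range was 3.06 log2 units.

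**Figure D5:**
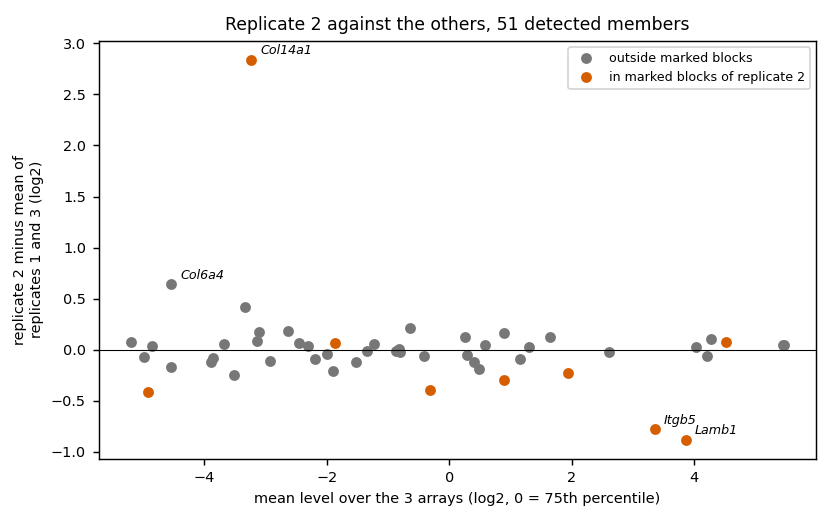
Level on replicate 2 minus the mean level of replicates 1 and 3 (log2 units, vertical) against the mean level (horizontal) for the 51 members detected on all arrays. Orange points are the 9 members whose probe lies in a marked block of replicate 2, and gene names are given for differences over 0.5 log2 units. Col14a1 stands at 2.84, Itgb5 at −0.78 and Lamb1 at −0.88, all in marked blocks, and Col6a4 at 0.64 outside them.

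Non-uniform spots were flagged 187 times on the array of replicate 2, and 148 of them lay in 6 of 48 blocks of the array, called marked blocks here. The representing probes of 9 detected members (17.6%) lay in these blocks, as did those of 12% of all detected named genes. They were Lamb1, Itgb5, Itgb7, Itgal, Itga11, Col1a2, Col9a2, Col14a1 and Col18a1. The median size of the difference between replicate 2 and the mean of the others was 0.39 log2 units for these 9 and 0.08 for the other 42. Replicate 2 was lower in 6 of the 9 and in 20 of the other 42. Among these 6, replicate 2 differed by −0.23 (Itgb7) to −0.88 log2 units (Lamb1). It was far higher for Col14a1, and for Itgal and Col18a1 the differences were 0.07 and 0.08. The part of the marked blocks in the values of Lamb1 and Itgb5 was not tested, since each gene has 1 probe with 1 spot.

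Col4a1 was the 1 member whose probe was printed in 10 spots, so for it the spots gave an error within each array. They ranged from 711 to 785 on replicate 1, from 512 to 676 on replicate 2 and from 684 to 807 on replicate 3. The level of replicate 2 was below that of replicate 1 (difference −0.10 ± 0.036 log2 units, SE), and that of replicate 3 was above replicate 2 (0.135 ± 0.036). In limma's moderated F test over 284 such probes the adjusted p was 0.0101, and 115 of these probes (40.5%) were called, with the limit for the adjusted p at 0.05. The call was lost without replicate 2 (adjusted p = 0.492) and after normexp background correction (adjusted p = 0.174). This test is about the 3 hybridised samples and not about a condition.

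Genes that act together with the members were read from lists of known partners. For comparison, 72.7% of all named genes were detected on all arrays. Of 26 genes for the modification and secretion of collagen, 21 were detected on all arrays, among them the prolyl hydroxylase chains P4ha1 (219, 220.1 and 232), P4ha2 (1269, 1225 and 1174), P4ha3 (201, 195 and 182) and P4hb (8119.6, 8071 and 7966). The lysyl hydroxylase Plod1 was detected too (194, 165 and 199). The 5 others, P3h2, Adamts3, Lox, Loxl3 and Loxl4, were undetected on all arrays. The lysyl oxidases, which cross-link fibrils, thus differed in detection, since Loxl1 (419.5, 429.8 and 394) and Loxl2 (1879, 2359 and 1915) were detected on every array.

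Of 13 further components and receptors of basement membrane and matrix, 10 were detected on all arrays, beside 72.7% of all named genes. The laminin-binding nidogens Nid1 and Nid2 were at 6147, 5632 and 5771 and at 7653, 7116 and 7854, and perlecan (Hspg2) was at 7755, 7456 and 7501. Agrin (Agrn), which also binds laminin, was at 25394, 22202 and 22175. Sparc, a collagen-binding protein, was at 96351, 88326 and 92036, and fibronectin (Fn1), the ligand of the integrin of Itga5 and Itgb1, at 55109, 53142 and 53544. Vitronectin (Vtn), a ligand of the Itgav integrins, was undetected on all arrays, and Tnc and Emilin1 passed on 1 and 2 arrays.

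Of 21 genes that connect integrins to actin, 18 were detected on all arrays, beside 72.7% of all named genes. Talin (Tln1), which activates integrins, was at 10874, 10077 and 10584, the second talin gene Tln2 at 554, 585 and 526, and the kindlin Fermt2 at 3939, 3750.2 and 3813. The kindlins of epithelium and blood cells, Fermt1 and Fermt3, were detected on no array and on 2 arrays, respectively, and Parvg, the parvin of blood cells, was detected on 2 arrays.

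Several members are known from other cell types, whose markers were read beside them. As 72.7% of all named genes were detected on all arrays, a count of detected markers alone does not show a cell type. All 10 markers of primitive and parietal endoderm, a lineage that secretes Lama1 and Col4a1, were detected on all arrays, with a summed signal between 902 and 990.1, for instance Gata4 (98.1, 104 and 101) and Gata6 (100.1, 81.5 and 94). Of the 8 fibroblast and feeder cell markers, 4 were detected on all arrays, with a summed signal between 785 and 865. Thy1 was at 612, 640.1 and 619, and Lum, Postn and Fap were undetected on all arrays. All 3 markers of stratified epithelium were detected on every array (summed signal 3012 to 3309), with Krt5 at 40.2, 56.5 and 36, Krt14 at 275, 238 and 291 and Trp63 at 2994, 2717 and 2752. Cartilage and bone markers passed on every array for 2 of 4 genes (438 to 449), endothelial markers in 2 of 4 (1115 to 1147) and skeletal muscle markers in 1 of 4 (174 to 202). Most of each of these sums came from 1 probe, that of Acan (381, 418 and 400.1), Vwf (949, 954 and 920.4) and Acta1 (191, 178 and 158). Cdh5, Emcn, Myod1, Myog and Ckm were undetected on all arrays. The part of such cells in the signals of the members was not tested.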

How the data were processed

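The deposited intensities were made by the authors with Agilent Feature Extraction (10.7.3.1 per the file headers), which subtracted the background within each array and set flags per spot; nothing was scaled between arrays. The deposited table of log2 values has no stated normalization and was used as an alternative. Probes were named by matching accessions, without versions, to the RefSeq genes of GRCm38.p6 (27235 of 55681 probes, 20660 genes). Spots without outlier flags were averaged, and 75th percentiles were taken over probes that were not controls. The 10-spot probes were tested with limma 3.58.1 in R 4.3.3 (lmFit, eBayes, Benjamini-Hochberg), checked on simulated data. No comparison of conditions was made. Detected members, those on 1 or 2 arrays, those with a range over 1 log2 unit and those whose probes disagree are given with values, undetected ones by name; some genes are not reported here. Members, lists and complexes were chosen with earlier results of these data known. Alternatives were other scalings, normexp with an offset of 50 on median spot signals (the files hold no mean signals), the looser flag, other rules for several probes, no filter, the deposited values and leaving out each replicate.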

Additional observations from a re-analysis of the deposited data

How the results depend on the processing

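The counts of detected members, families, heterodimers and laminin trimers stayed within 1.5 times their values under each alternative run. With the looser flag for positive and significant signals, 64 members were detected in place of 51, and 10 of 11 collagen trimers were complete in place of 3. Leaving out 1 replicate gave 3 to 5 collagen trimers. Members with a range over 1 log2 unit numbered 1 with the main settings and 1 to 2 when a replicate was left out (Col11a1 in place of Col14a1 without replicate 2, and Col25a1 beside it without replicate 3). They numbered 2 when arrays were scaled by the median, which added Lamb1, 10 with no filter on detection and, by construction, 0 with replicate 2 left out of probes in marked blocks, where the probe of Col14a1 lies. With no filter the median SD was 0.14 log2 units in place of 0.077. The 10-spot probe of Col4a1 was called in 0 or 1 case when a replicate was left out (0 without replicate 2) and in 0 after normexp correction, and its adjusted p ran from 3.66e-05 with median scaling to 0.492. Over all 284 probes of this test, 115 were called with the main settings, 150 with the median, 107 after quantile normalization, 23 after normexp correction, 28 without replicate 2, 76 without replicate 1 and 86 without replicate 3. The count of members with a level above the 75th percentile was 20 in each alternative run, each read against its own percentile. To compare levels, each setting was shifted to the same median over detected probes. Normexp correction, whose offset raises dim signals, then moved 57 of 65 members by more than their SD, by up to 3.72 log2 units, and the deposited table moved 2. Leaving out replicate 1, 2 or 3 shifted a level by up to 0.48, 0.94 and 0.58 log2 units, the 0.94 being Col14a1 (−3.23 to −4.17). No paired analysis was possible because there was 1 group and nothing to pair its samples with. Calls near the lowest signal well above background are limited by that background, and single-spot probes have no error of their own on an array.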

Other observations

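Of 11 matrix metalloproteinases and their inhibitors, which were in no comparison above, 8 were detected on all arrays. This is no more than the 72.7% of all named genes that were. Mmp2, a gelatinase that cleaves collagen IV, was at 365, 333 and 329.6, and Mmp11 at 6646, 6749.6 and 6289. The membrane-bound enzymes Mmp14 and Mmp15 were at 146, 149 and 155 and at 115, 106 and 119. Of the inhibitors, Timp1 was at 5459, 5432 and 5016 and Timp2 at 1073, 1017 and 1034. Mmp3 and Mmp13 were undetected on all arrays, and Mmp9 passed on 2 arrays (10.6, 10.6 and 11.9).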
